A study of Homo sapiens with 18 samples.

Results

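AP-1 is a family of dimeric transcription factors built from FOS and JUN proteins, and it is described here together with EGR1, KLF6 and IER3, which belong to the same immediate-early response. The 10 genes FOS, FOSB, FOSL1, FOSL2, JUN, JUNB, JUND, EGR1, KLF6 and IER3 were chosen by symbol from the 62749 genes in the count table. The rule uses symbols and no measured value, though earlier results of these data were known when the genes were picked. All 10 passed the filter on low counts and were tested. RNA was sequenced from cells of MDA-MB-231, a line from a triple-negative breast cancer, in which IMPDH2 had been knocked out and put back in several forms. IMPDH2 is the enzyme of the rate-limiting step of guanine nucleotide synthesis. There were 18 libraries in 6 groups of 3. KO+G cells lacked IMPDH2 and were grown with 400 µM guanosine, which cells can salvage into guanine nucleotides. KO-NLS cells were knockout cells carrying IMPDH2 directed to the nucleus, and KO-NES cells were knockout cells carrying IMPDH2 directed to the cytosol. KO-WT cells were knockout cells carrying IMPDH2 with no added targeting, and KO-G cells were the knockout grown without guanosine. WT cells were the unmodified line, also without guanosine. The labels do not say whether the knockout is 1 clone, how the returned IMPDH2 is driven, or if replicate libraries stem from different cultures. The p-values then measure only the spread between these libraries, which may be technical.

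FOS and JUN proteins pair through leucine zippers and bind the AP-1 site TGACTCA, and JUN proteins also pair with ATF and CREB factors on the related site TGACGTCA. Growth factors and stress switch on FOS, EGR1 and JUN within minutes through ERK, JNK and p38 kinases, which act on serum response factor, its ELK partners and on JUN itself, and the transcripts are short-lived. FOSL1 (FRA-1) is known as the dominant FOS protein of mesenchymal breast cancer cells such as this line, where it drives invasion genes. The comparisons ask what loss of IMPDH2 does, whether guanosine or returned IMPDH2 offsets it, and whether nuclear and cytosolic IMPDH2 differ.

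The libraries held 45865079 to 63276484 estimated counts each. IMPDH2 itself stood at 6.93% of its WT level in KO+G cells, 93.3% in KO-NLS, 119% in KO-NES, 167% in KO-WT and 13.1% in KO-G, so the labels fit its RNA, and the 3 returned forms were not equal in amount. All 10 mesenchymal markers searched were found, with a summed level of 7022 to 7426 CPM in KO-G libraries and 9802 to 10062 CPM in WT libraries. The 12 luminal markers summed to 475 to 486 CPM in KO-G and 1007 to 1029 CPM in WT. In each group 5 of the 12 stayed under 1 CPM, with the progesterone receptor PGR under 0.1 CPM in every library. By the test described below, 6 of the 8 tested were lower in KO-G than in WT cells and 1 was higher. Of all genes 36.8% were lower and 35.9% higher. The 6 blood markers summed to 666 to 704 CPM in KO-G and 146 to 152 CPM in WT. CD68, a lysosomal protein of many cell types, averaged 680.9 ± 19.8 CPM in KO-G cells and 145.9 ± 3.47 CPM in WT cells, while CD3E and HBB stayed under 0.1 CPM. The 5 endothelial markers summed to 29.2 to 30.9 CPM in KO-G and 17.4 to 19.3 CPM in WT, with CDH5 under 0.1 CPM. In KO-G against WT cells KDR and TEK were higher (1.76 and 3.90 on the log2 scale), PECAM1 was lower (-1.17) and VWF was not called. The 6 fibroblast markers summed to 5.34 to 6.43 CPM in KO-G and 16.2 to 18.3 CPM in WT. The part of these shifts in the results below was not tested, and in bulk RNA a change in how many cells express a gene and a change per cell cannot be told apart. Levels below are CPM, estimated counts relative to library size with TMM scaling, unless TPM is named, and a gene was called changed at an adjusted p under 0.05 from the quasi-likelihood test of edgeR, adjusted over 19252 genes by the Benjamini-Hochberg method.

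The 10 genes split in direction between KO-G and WT cells. Loss of IMPDH2 cannot be told apart here from other differences between these lines. Against WT, KO-G cells had higher FOS, JUNB, JUND, EGR1 and IER3 and lower FOSL1, FOSL2, JUN and KLF6, 9 called of 10. FOS (1.91-fold), EGR1 (1.82-fold) and JUNB (1.71-fold) rose most, and FOSL2 (1.93-fold), KLF6 (1.72-fold) and FOSL1 (1.49-fold) fell most. FOSB was not called. Of all genes tested, 72.7% were called in this comparison, 35.9% as higher and 36.8% as lower, against 5 and 4 of these 10. In all 10 genes the KO-G and WT libraries did not overlap, as in 74.7% of all genes. The median size of the log2 fold change was 0.675 over the 10 genes and 0.489 over all genes. TMM scaling moved every gene by -0.16 on the log2 scale relative to library totals, which turns no sign here. The shift is large beside the log2 fold changes of JUN (-0.25) and IER3 (0.19), and calls on library totals alone were not tested.

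**Figure D1:**
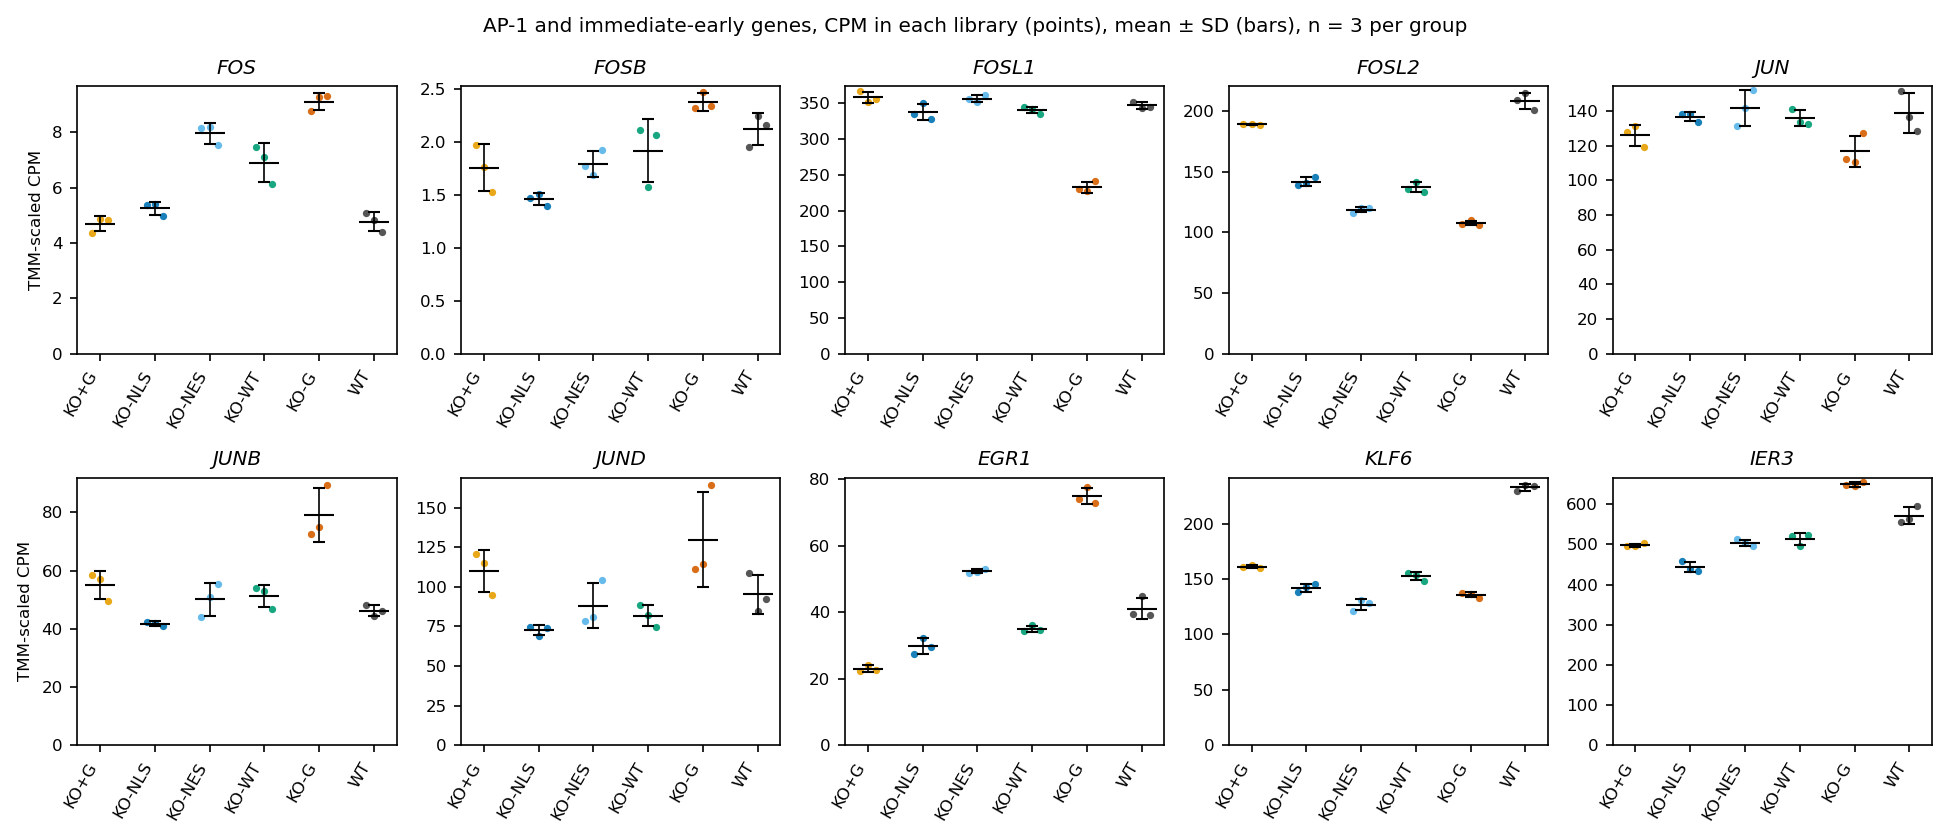
CPM of the 10 genes (vertical axes, linear from 0) in the 18 libraries (points) of the 6 groups (horizontal axis), with each group's mean and SD (bars, n = 3). EGR1 and FOS were highest in KO-G libraries, FOSL1 was lowest there (226.9 to 240.9 CPM), and KLF6 was highest in WT libraries (229.4 to 235.0 CPM).

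In KO+G cells against KO-G cells, EGR1 fell 3.26-fold, FOS 1.94-fold, JUNB 1.44-fold, FOSB 1.35-fold and IER3 1.30-fold, and FOSL2 rose 1.76-fold, FOSL1 1.54-fold and KLF6 1.19-fold. That made 8 called of 10, against 56.5% of all genes tested, and JUN and JUND were not called. Over all genes 27.3% were called higher and 29.2% lower. KO-G libraries enter both this comparison and the one with WT. The 2 sets of values therefore share samples and are set side by side only.

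Knockout cells carrying any of the 3 forms of IMPDH2 differed from KO-G cells in all 10 genes. The same 3 KO-G libraries enter these 3 comparisons and those above. The comparisons therefore share samples and are set side by side only. In KO-WT cells 10 of 10 were called, where 50.8% of all genes were: FOSL1, FOSL2, JUN and KLF6 rose and FOS, FOSB, JUNB, JUND, EGR1 and IER3 fell. Over all genes 25.7% rose and 25.1% fell in that comparison. In KO-NLS cells against KO-G cells the same 4 genes rose and the same 6 fell, 10 called where 53.0% of all genes were (26.1% higher, 26.9% lower). In KO-NES cells against KO-G cells FOSL1, FOSL2 and JUN rose and the other 7 fell, 10 called where 50.6% of all genes were (24.6% higher, 26.0% lower). The median size of the log2 fold change was 0.374, 0.625 and 0.386 over the 10 genes in KO-WT, KO-NLS and KO-NES cells, and 0.236, 0.253 and 0.238 over all genes. Several of these calls did not hold throughout. In KO-NES cells those of FOS, FOSB, FOSL2 and KLF6 were lost in some settings or without some libraries, as given below. FOSB in KO-WT cells (adjusted p = 0.0446) was lost with DESeq2's Wald test (adjusted p = 0.122) and without any 1 KO-G library or KO-WT replicate 2 (adjusted p 0.0749 to 0.224). KLF6 in KO-NLS cells (adjusted p = 0.0486) was lost on protein-coding transcripts only (adjusted p = 0.207) and without replicate 2 or 3 of either group (adjusted p 0.0699 to 0.223).

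**Figure D2:**
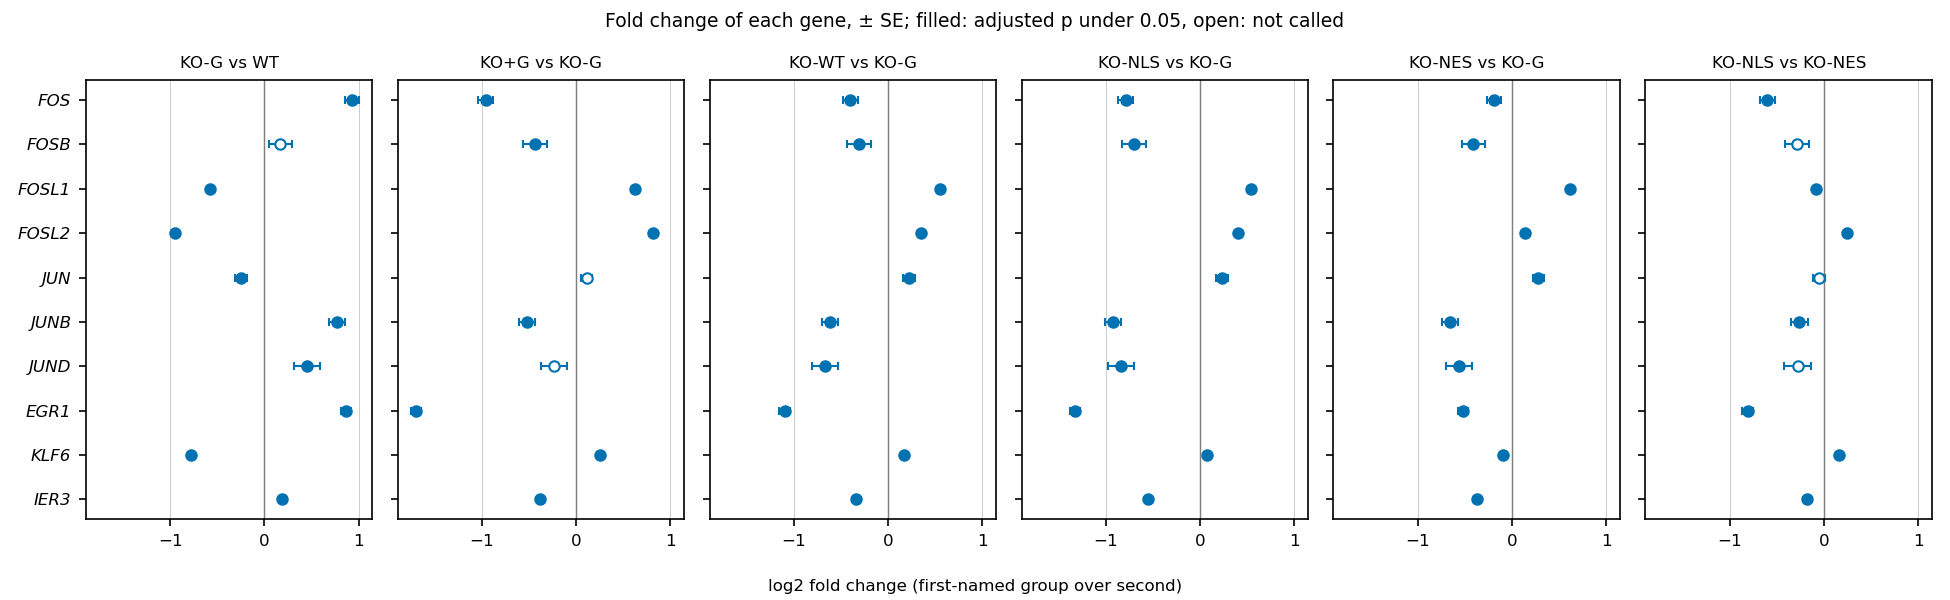
Log2 fold change (horizontal axis, first-named group over the second) with its standard error for each gene in 6 comparisons (panels), with filled points for an adjusted p under 0.05. EGR1 ran from 0.87 in KO-G against WT to -1.70 in KO+G against KO-G.

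Cells with nuclear and with cytosolic IMPDH2 differed in the levels of 7 genes, set directly against each other. In KO-NLS cells against KO-NES cells EGR1 fell 1.75-fold, FOS 1.51-fold, JUNB 1.20-fold, IER3 1.14-fold and FOSL1 1.06-fold, and FOSL2 rose 1.19-fold and KLF6 1.12-fold. Of all genes tested 23.9% were called (13.4% higher, 10.5% lower), and 36.2% had libraries that did not overlap, against 9 of these 10 genes. The median size of the log2 fold change was 0.259 over the 10 genes and 0.127 over all genes. FOSB, JUN and JUND were not called, and 2 of the 7 calls were marginal and were lost without almost any 1 library. FOSL1 lost its call without any 1 of the libraries except KO-NLS replicate 2 (adjusted p 0.065 to 0.209), and JUNB without any 1 except KO-NES replicate 1 (adjusted p 0.0698 to 0.161). IMPDH2 RNA was itself 1.27-fold lower in KO-NLS than in KO-NES cells. The place of the enzyme, its amount and other differences between these lines cannot be told apart in these values.

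Among the FOS proteins, FOS is the founding member, a strong activator with a short-lived transcript. FOS (ENSG00000170345.10; chr14:75278774-75282230, plus strand, GRCh38) was at 4.37, 4.86 and 4.85 CPM in KO+G libraries, 5.37, 5.42 and 4.99 CPM in KO-NLS, and 8.15, 8.18 and 7.53 CPM in KO-NES. It was at 7.46, 7.11 and 6.12 CPM in KO-WT libraries, 8.75, 9.27 and 9.29 CPM in KO-G, and 5.07, 4.81 and 4.399 CPM in WT. KO-G libraries were the highest and overlapped no other group, and KO+G, KO-NLS and WT libraries lay at the low end, where WT overlapped both others. FOS was higher in KO-G than in WT cells by 0.93 ± 0.0791 on the log2 scale (± SE, edgeR adjusted p = 4.69e-09) and lower in KO-NLS than in KO-NES cells by 1.51-fold (-0.60 ± 0.0785, edgeR adjusted p = 2.3e-05). In the order of levels KO-NES and KO-WT did not differ beyond their spread (edgeR adjusted p = 0.0634), nor did KO-NLS and WT (0.132) or KO+G and WT (0.841). The difference of KO-NES from KO-G cells was small (-0.19 ± 0.0762, edgeR adjusted p = 0.0411) and its call was lost whichever 1 of the 6 libraries was left out (adjusted p 0.0519 to 0.135).

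FOSB, a close relative of FOS, was scarce, between 1.40 and 2.47 CPM in all 18 libraries. It averaged 2.38 ± 0.0841 CPM in KO-G cells and 2.12 ± 0.15 CPM in WT cells (SD, n = 3 each), a difference that was not called (edgeR adjusted p = 0.236) although the libraries did not overlap. KO-NLS cells were lowest, at 1.47, 1.51 and 1.40 CPM, and differed from KO-G cells (-0.70 ± 0.126, edgeR adjusted p = 0.000127). No neighbouring groups in the order of FOSB levels differed by the test.

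FOSL1 was the most abundant FOS gene. FOSL1 (ENSG00000175592.9; chr11:65892049-65900573, minus strand, GRCh38) was at 366.9, 351.4 and 356.3 CPM in KO+G libraries, 334.6, 350.2 and 327.9 CPM in KO-NLS, 355.2, 352.2 and 362.1 CPM in KO-NES, and 344.2, 342.1 and 335.5 CPM in KO-WT. It was at 229.8, 226.9 and 240.9 CPM in KO-G libraries and 352.2, 343.7 and 344.7 CPM in WT libraries. KO-G libraries were low and apart, and the other 5 groups lay within 327.9 to 366.9 CPM. FOSL1 fell by 0.58 on the log2 scale in KO-G against WT cells (SE 0.0276, edgeR adjusted p = 1.31e-12). Against WT, none of KO+G, KO-NLS, KO-NES and KO-WT cells differed (edgeR adjusted p 0.152 to 0.414), with log2 differences of 0.05, -0.04, 0.04 and -0.03. Those same 4 groups were above KO-G cells by 0.54 to 0.62 on the log2 scale, all called.

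FOSL2 encodes FRA-2, which like FRA-1 lacks the strong activating end of FOS. FOSL2 (ENSG00000075426.12; chr2:28392448-28417312, plus strand, GRCh38) was at 189.7, 189.1 and 188.7 CPM in KO+G libraries, 139.0, 140.4 and 145.8 CPM in KO-NLS, and 116.1, 120.0 and 120.3 CPM in KO-NES. It was at 136.1, 141.8 and 133.6 CPM in KO-WT libraries, 107.1, 110.0 and 106.3 CPM in KO-G, and 209.2, 214.8 and 201.0 CPM in WT. WT libraries were highest, KO+G libraries came next, and the others lay well below without reaching either. FOSL2 fell by 0.95 in KO-G against WT cells (SE 0.0287, edgeR adjusted p = 2e-15), and 14 of the 15 pairs of groups differed. The exception was KO-NLS against KO-WT (edgeR adjusted p = 0.339). Unlike FOSL1, FOSL2 stayed below WT in every knockout-derived group, at 90.8% of WT in KO+G cells, 68.0% in KO-NLS, 57.0% in KO-NES, 65.8% in KO-WT and 51.7% in KO-G, all called. With transcript length allowed for, its rise of 0.40 in KO-NLS against KO-G cells was 0.25 (edgeR adjusted p = 0.00258) and its rise of 0.14 in KO-NES against KO-G cells was 0.00 (0.979).

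JUN is the founding JUN protein and the target of JNK. JUN (chr1:58780788-58784327, minus strand, GRCh38) varied least of the 10 genes, 1.22-fold between the highest and lowest group. Its libraries were at 112.3, 110.6 and 127.0 CPM in KO-G cells and at 151.4, 136.6 and 128.4 CPM in WT cells. The groups did not overlap, and KO-G replicate 3 came close to WT replicate 3. JUN fell by 0.25 in KO-G against WT cells (SE 0.0618, edgeR adjusted p = 0.0014), and by 0.16 without WT replicate 1 (adjusted p = 0.0257). In KO+G cells it was at 127.6, 131.0 and 119.4 CPM and overlapped KO-G cells, with no call (edgeR adjusted p = 0.139) until KO-G replicate 3 was left out (0.18, adjusted p = 0.0246). No neighbours in the order of JUN levels differed by the test.

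JUNB can restrain JUN at some sites. JUNB (chr19:12791496-12793315, plus strand, GRCh38) was at 58.6, 57.1 and 49.4 CPM in KO+G libraries, 42.5, 42.0 and 40.8 CPM in KO-NLS, and 44.1, 50.9 and 55.4 CPM in KO-NES. It was at 54.0, 53.0 and 47.0 CPM in KO-WT libraries, 72.5, 75.0 and 89.6 CPM in KO-G, and 48.1, 44.5 and 46.1 CPM in WT. KO-G libraries were above all 15 others and KO-NLS libraries below all 15 others. JUNB rose by 0.77 in KO-G against WT cells (SE 0.0846, edgeR adjusted p = 1.61e-07), and fell by 0.92 in KO-NLS against KO-G cells (SE 0.0847, edgeR adjusted p = 5.04e-08). Below KO-G, no neighbours in the order differed by the test.

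JUND is the JUN protein of resting cells, and its call in KO-G against WT cells rested on 1 library. JUND (chr19:18279760-18281622, minus strand, GRCh38) was at 110.9, 114.3 and 164.2 CPM in KO-G libraries and at 108.7, 84.6 and 92.3 CPM in WT libraries. The lowest KO-G library was just above the highest WT library, and KO-G replicate 3 was far above the rest. JUND rose by 0.45 in KO-G against WT cells (SE 0.137, edgeR adjusted p = 0.0072), and by 0.24 without KO-G replicate 3, which ended the call (adjusted p = 0.0827). Its fall of 0.56 in KO-NES against KO-G cells was 0.36 without that library (adjusted p = 0.0208). KO-NLS libraries, at 74.9, 69.2 and 73.8 CPM, were below all 3 KO-G libraries (-0.84 ± 0.139, edgeR adjusted p = 5.54e-05) and below all 3 WT libraries (-0.39 ± 0.141, edgeR adjusted p = 0.0212). KO+G cells were at 120.6, 114.8 and 95.0 CPM and overlapped KO-G cells.

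On the per-length TPM scale the 7 AP-1 subunit genes can be set beside each other. FOSL1 made up 57.1 ± 1.42% of their summed TPM in KO+G cells, 62.8 ± 1.59% in KO-NLS, 61.4 ± 2.29% in KO-NES, 61.1 ± 1.22% in KO-WT, 46.7 ± 3.0% in KO-G and 58.0 ± 1.78% in WT (SD, n = 3 each). The FOSL1 share was 49.0, 47.9 and 43.3% in KO-G libraries and 55.9, 58.7 and 59.2% in WT libraries. The 3 JUN genes together took 43.2, 43.9 and 50.1% in KO-G libraries and 34.5, 30.5 and 30.4% in WT libraries. Neither share overlapped between KO-G and WT, and KO-G replicate 3, the library with high JUND, stood apart in both. JUNB took 9.03 ± 0.146% in KO-G cells and 4.62 ± 0.11% in WT cells, and FOS 1.29 ± 0.0827% in KO-G cells and 0.597 ± 0.0351% in WT cells. The summed TPM of the 7 genes was 377.5, 397.0 and 432.3 in KO-G libraries and 447.5, 450.3 and 433.4 in WT libraries. The JUND share depends on how reads were divided among its transcripts, since a 500-base transcript model held 49.8 ± 2.08% of JUND TPM in KO-G cells and 48.3 ± 2.27% in WT cells. These shares describe RNA and carry no test.

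**Figure D3:**
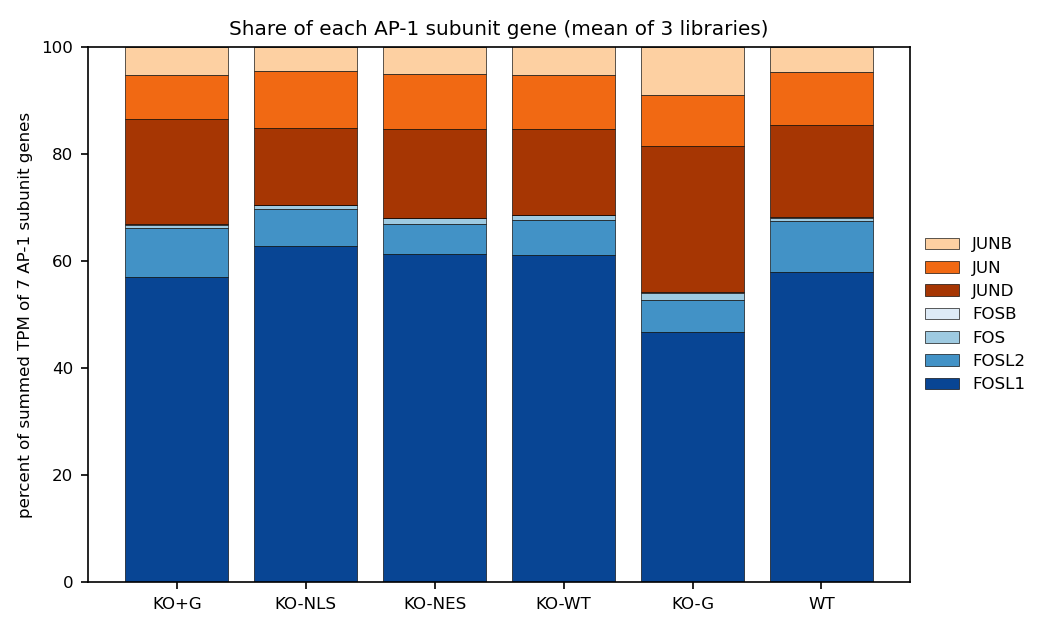
Share of the summed TPM of 7 AP-1 subunit genes (vertical axis, percent) held by each gene in the 6 groups (horizontal axis), as the mean of 3 libraries, with FOS genes in blue and JUN genes in orange. The JUN genes took 45.7% in KO-G cells and 31.8% in WT cells.

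EGR1, a zinc finger factor switched on by ERK through serum response factor, had the widest range of the 10 genes. EGR1 (ENSG00000120738.8; chr5:138465490-138469315, plus strand, GRCh38) was at 22.3, 24.1 and 22.5 CPM in KO+G libraries, 27.5, 32.4 and 29.5 CPM in KO-NLS, and 51.8, 52.2 and 52.9 CPM in KO-NES. It was at 34.2, 36.1 and 34.7 CPM in KO-WT libraries, 74.2, 77.8 and 72.9 CPM in KO-G, and 39.4, 44.8 and 39.2 CPM in WT. The 6 groups formed steps with no overlap, from KO-G down through KO-NES, WT, KO-WT and KO-NLS to KO+G. All 15 pairs of groups differed, and the smallest differences were -0.23 ± 0.0563 in KO-NLS against KO-WT cells (edgeR adjusted p = 0.0117) and -0.23 ± 0.0554 in KO-WT against WT cells (0.00129). EGR1 rose by 0.87 in KO-G against WT cells (SE 0.0534, edgeR adjusted p = 5.06e-11). KO+G cells were below WT cells too, at 55.9% of the WT level (-0.84 ± 0.0579, edgeR adjusted p = 4.5e-10), and KO-NES cells were above WT cells at 127% (0.35 ± 0.0542, edgeR adjusted p = 1.69e-05). KO-NLS cells were 1.75-fold below KO-NES cells (-0.81 ± 0.0551, edgeR adjusted p = 1.34e-08).

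The 3 genes whose group pattern lay nearest to that of EGR1, by root mean square difference of centred log2 levels over the 6 groups among 12817 genes, were ENSG00000250644 (0.147), LINC00702 (0.183) and ZNF558 (0.194). ZNF558, a zinc finger gene, averaged 23.0 ± 0.345 CPM in KO+G cells, 32.6 ± 1.86 in KO-NLS, 47.4 ± 1.41 in KO-NES, 34.2 ± 1.07 in KO-WT, 53.5 ± 1.77 in KO-G and 36.0 ± 1.37 in WT (SD, n = 3 each). LINC00702, a long noncoding RNA, was near 3.54 ± 0.507 CPM in KO+G cells, 8.67 ± 0.18 CPM in KO-G cells and 4.85 ± 0.403 CPM in WT cells. ENSG00000250644 was at 3.97 ± 1.32 CPM in KO+G cells, 12 ± 0.805 CPM in KO-G cells and 6.89 ± 0.839 CPM in WT cells. These 3 were picked for their likeness, which is a description of group means.

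KLF6, a zinc finger factor of the Krüppel-like family with tumour suppressor roles, stayed low in every knockout-derived group. KLF6 (ENSG00000067082.15; chr10:3775996-3785281, minus strand, GRCh38) was at 161.0, 162.5 and 160.4 CPM in KO+G libraries, 138.4, 142.6 and 145.7 CPM in KO-NLS, and 121.6, 131.0 and 128.2 CPM in KO-NES. It was at 155.3, 153.9 and 148.6 CPM in KO-WT libraries, 137.3, 136.7 and 133.2 CPM in KO-G, and 229.4, 235.0 and 234.2 CPM in WT. WT libraries stood far above the other 15, which lay between 121.6 and 162.5 CPM. KLF6 fell by 0.78 in KO-G against WT cells (SE 0.0275, edgeR adjusted p = 1.71e-14), and the rises over KO-G cells were 0.25 in KO+G cells and 0.17 in KO-WT cells. All 15 pairs of groups were called, down to a difference of 0.07 in KO-NLS against KO-G cells. KLF6 in KO-NES against KO-G cells, at -0.10, lost its call when transcript length was allowed for (adjusted p = 0.0604) and without KO-G replicate 1 (0.0639).

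IER3, a short-lived anti-apoptotic protein of the ERK response that is no DNA-binding factor, was the most abundant of the 10 by TPM. IER3 (chr6:30743199-30744554, minus strand, GRCh38) was at 648.7, 644.6 and 655.4 CPM in KO-G libraries and at 554.8, 562.7 and 595.0 CPM in WT libraries. KO-G libraries were above all 15 others. IER3 rose by 0.19 in KO-G against WT cells (SE 0.0283, edgeR adjusted p = 1.04e-05). It averaged 498.1 ± 3.87 CPM in KO+G cells, 444.0 ± 12.9 in KO-NLS, 504.1 ± 8.02 in KO-NES and 513.6 ± 15.7 in KO-WT (SD, n = 3 each), and each of these was also below WT cells by the test. In this order KO-NES cells did not differ beyond the spread from KO-WT cells (edgeR adjusted p = 0.554) or KO+G cells (0.665).

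KO+G cells differed from WT in 5 of 10 genes, where 63.9% of all genes did, KO-WT cells in 5 (64.5% of all genes), KO-NLS cells in 6 (65.1%) and KO-NES cells in 5 (67.6%). FOSL2, KLF6 and IER3 were below WT in all of these groups. FOS remained above WT in KO-NES cells (1.67-fold) and KO-WT cells (1.45-fold) and was not called in KO-NLS or KO+G cells. Between the groups given guanosine or IMPDH2, KO+G cells differed from KO-NLS cells in 7 genes (37.3% of all genes), from KO-NES cells in 5 (43.1%) and from KO-WT cells in 6 (37.5%). KO-NLS and KO-WT cells differed in 5 genes (12.0% of all genes), FOS, JUNB, EGR1, KLF6 and IER3, each lower in KO-NLS cells. KO-NES and KO-WT cells differed in 3 (24.2%): EGR1 was 1.49-fold higher in KO-NES cells, and FOSL2 (1.15-fold) and KLF6 (1.20-fold) were lower.

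For KO-G against WT, each gene was also set against the 50 nearest protein-coding genes tested. The median log2 fold change of those neighbours was -0.80 around JUN and -0.57 around EGR1, and 0.51 around JUNB, 0.36 around JUND and 0.28 around IER3. Relative to its neighbours JUN came to 0.55, where its own fold change was -0.25, and IER3 came to -0.09, where its own was 0.19, so both signs turned. JUND came to 0.08 and JUNB to 0.26, while EGR1 came to 1.44, FOS to 0.80, FOSL1 to -0.75, FOSL2 to -1.24 and KLF6 to -0.63. This setting was added after the data were seen, and a part of chromosomal copy number or other regional change in the results was not tested.

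Promoter sequences of 5 of these genes are printed because they rose or fell most or carry sites of the factors described here. They run from 250 bases before the RefSeq start to 20 bases after it, in the gene's own direction, on build GRCh38.p14. Entries of the RefSeq promoter table used here matched 8 of the 10 genes; FOSL1 and IER3 are named only. Capitals mark the motifs searched on both strands: the CArG box bound by serum response factor, TGACTCA, TGACGTCA and TGACATCA for AP-1 and ATF dimers, the shorter CREB core TGACG, and GCGNGGGCG for EGR1, with TGACG also counted inside TGACGTCA.
EGR1, chr5:138465229-138465498, plus strand: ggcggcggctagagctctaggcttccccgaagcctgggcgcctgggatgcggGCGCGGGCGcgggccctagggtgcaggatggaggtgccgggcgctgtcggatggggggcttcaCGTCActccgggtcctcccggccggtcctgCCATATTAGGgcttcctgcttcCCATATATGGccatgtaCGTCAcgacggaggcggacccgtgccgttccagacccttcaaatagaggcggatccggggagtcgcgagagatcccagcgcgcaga
FOS, chr14:75278578-75278847, plus strand: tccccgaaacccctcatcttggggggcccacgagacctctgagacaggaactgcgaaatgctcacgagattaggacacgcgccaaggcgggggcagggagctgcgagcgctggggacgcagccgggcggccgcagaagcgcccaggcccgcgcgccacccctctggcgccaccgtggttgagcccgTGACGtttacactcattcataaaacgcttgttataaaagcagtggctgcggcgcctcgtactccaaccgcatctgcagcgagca
JUN, chr1:58784028-58784297, minus strand: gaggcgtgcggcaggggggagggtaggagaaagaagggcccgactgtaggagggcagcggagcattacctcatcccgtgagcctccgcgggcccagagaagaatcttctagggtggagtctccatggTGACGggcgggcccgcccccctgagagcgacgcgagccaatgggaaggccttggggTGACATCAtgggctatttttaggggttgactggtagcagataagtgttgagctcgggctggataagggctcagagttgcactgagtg
FOSL2, chr2:28392608-28392877, plus strand: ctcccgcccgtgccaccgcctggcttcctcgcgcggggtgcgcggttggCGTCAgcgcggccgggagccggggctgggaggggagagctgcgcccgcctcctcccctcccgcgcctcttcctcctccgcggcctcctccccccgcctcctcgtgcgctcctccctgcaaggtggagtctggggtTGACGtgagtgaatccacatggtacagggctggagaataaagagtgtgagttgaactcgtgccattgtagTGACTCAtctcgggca
KLF6, chr10:3785190-3785459, minus strand: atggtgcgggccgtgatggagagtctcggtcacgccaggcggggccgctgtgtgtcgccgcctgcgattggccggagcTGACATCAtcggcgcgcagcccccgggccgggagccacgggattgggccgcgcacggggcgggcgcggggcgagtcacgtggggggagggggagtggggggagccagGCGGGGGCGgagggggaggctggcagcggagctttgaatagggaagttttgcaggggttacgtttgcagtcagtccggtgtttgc

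In the EGR1 promoter the CArG boxes began at -105 and -83, an EGR1 motif at -198, and TGACG matches at -135 and -66. A CArG box was in 1.29% of 35116 promoters of 300 bases, the EGR1 motif in 9.43% and TGACG in 24.6%. FOS carried TGACG at -64, a known response element for CREB, JUN carried TGACATCA at -67 (in 2.61% of promoters), and KLF6 carried TGACATCA at -172 and an EGR1 motif at -65. FOSL2 carried TGACTCA from base 5 (in 4.95% of promoters), and JUND, which is not printed, TGACGTCA at -200 (in 1.85%). In these windows FOS, JUNB and EGR1, which rose in KO-G against WT cells, carried TGACG but none of the longer AP-1 and ATF motifs. The same held for FOSB, which was not called, and FOSL1 and IER3 had no entry. FOSL2, KLF6 and JUN fell, and each carried such a motif. JUND, which also carried such a motif, rose, though that call was lost without KO-G replicate 3. A link between motif and direction of change was not tested, and sites outside these windows were not searched. The letters describe these windows and say nothing of binding.

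Other immediate-early genes leaned upward in the knockout. Of 28 tested, 16 rose and 8 fell in KO-G against WT cells, with a median log2 fold change of 0.24 against 0.01 over all genes, of which 35.9% rose and 36.8% fell. MYC, the growth regulator, averaged 323.6 ± 12.2 CPM in KO-G cells and 176.7 ± 1.23 CPM in WT cells (1.83-fold, edgeR adjusted p = 6.54e-15), and KLF4 59.4 ± 1.64 CPM in KO-G cells and 30.2 ± 1.52 CPM in WT cells (1.97-fold). MCL1, a survival protein, was lower, at 336.0 ± 2.85 CPM in KO-G cells and 531.2 ± 11.5 CPM in WT cells. In KO+G cells against KO-G cells 4 of the 28 rose and 15 fell, in KO-WT cells 3 rose and 17 fell, in KO-NLS cells 2 rose and 20 fell, and in KO-NES cells 4 rose and 13 fell. Over all genes 24.6 to 27.3% rose and 25.1 to 29.2% fell in these comparisons with KO-G, which share the KO-G libraries. In KO-NLS against KO-NES cells none rose and 16 fell, with a median of -0.18 against 0.00 over all genes, of which 13.4% rose and 10.5% fell. The secreted matrix protein gene CCN2 averaged 577.2 ± 14.3 CPM in KO-NLS cells and 870.8 ± 18.1 CPM in KO-NES cells (edgeR adjusted p = 1.72e-09), its relative CCN1 564.7 ± 15.2 CPM in KO-NLS cells and 662.7 ± 7.53 CPM in KO-NES cells, and KLF10 57.9 ± 3.95 CPM in KO-NLS cells and 74.5 ± 4.44 CPM in KO-NES cells. EGR2, the nearest relative of EGR1 and named after its values were seen, was scarce at 2.55 ± 0.0408 CPM in KO-G cells and 0.722 ± 0.0915 CPM in WT cells (edgeR adjusted p = 1.16e-06), and averaged 0.804 ± 0.0823 CPM in KO-NLS cells and 1.69 ± 0.496 CPM in KO-NES cells (edgeR adjusted p = 0.00204).

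The kinases upstream leaned downward in the knockout. Of 26 genes of the RAS, MAP kinase and serum response factor set, 3 rose and 20 fell in KO-G against WT cells, with a median of -0.35 against 0.01 over all genes, of which 35.9% rose and 36.8% fell. MAP2K4, which activates JNK and p38, averaged 25.2 ± 0.995 CPM in KO-G cells and 55.6 ± 2.11 CPM in WT cells (2.2-fold lower, edgeR adjusted p = 9.51e-15), and MAP2K3, which activates p38, 49.0 ± 2.68 CPM in KO-G cells and 92.4 ± 1.92 CPM in WT cells. In KO+G cells against KO-G cells 18 of the 26 rose and 2 fell, and those higher were 18 in KO-WT cells with none lower, 17 in KO-NLS cells with 1 lower and 15 in KO-NES cells with none lower. Over all genes 24.6 to 27.3% rose in these comparisons, which share the KO-G libraries with each other and with KO-G against WT. Between KO-NLS and KO-NES cells 21 of 26 were not called, and 23.9% of all genes were. The 4 higher in KO-NLS cells included MAP2K6 (2.68 ± 0.219 CPM in KO-NLS cells, 1.23 ± 0.121 CPM in KO-NES cells), MAPK9 (62.2 ± 1.1 CPM in KO-NLS cells, 53.1 ± 2.17 CPM in KO-NES cells) and MAP2K4 (35.5 ± 0.962 CPM in KO-NLS cells, 31.5 ± 0.965 CPM in KO-NES cells).

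Genes that ERK induces to limit itself were divided, 8 higher and 10 lower of 18 in KO-G against WT cells, where 35.9% of all genes were higher and 36.8% lower. SPRY4, an inhibitor of receptor signalling to RAS, averaged 97.7 ± 3.08 CPM in KO-G cells and 230.8 ± 4.67 CPM in WT cells (edgeR adjusted p = 2.54e-16). DUSP4, an ERK and JNK phosphatase, averaged 490.5 ± 11.1 CPM in KO-G cells and 754.5 ± 14.3 CPM in WT cells, and ETV1, an ERK-responsive ETS factor, 106.7 ± 3.76 CPM in KO-G cells and 172.6 ± 4.83 CPM in WT cells. In KO-NLS against KO-NES cells 3 of the 18 rose and 3 fell, where 13.4% of all genes rose and 10.5% fell: DUSP4 rose 1.19-fold and ETV1 1.1-fold, and SPRY4 fell 1.12-fold.

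Of the 6 lists, known AP-1 targets spanned the widest range of fold changes in KO-G against WT cells. Of 26, 8 rose and 13 fell, with a median of -0.16 against 0.01 over all genes. With 72.7% of all genes called, the number called in this list is near the background. The collagenase MMP1 averaged 21779.5 ± 777 CPM in KO-G cells and 2048.3 ± 68.8 CPM in WT cells (10.6-fold, edgeR adjusted p = 3.15e-20). Tissue factor, F3, averaged 50.3 ± 2.05 CPM in KO-G cells and 308.1 ± 0.896 CPM in WT cells (6.13-fold lower), and the urokinase gene PLAU 231.9 ± 5.01 CPM in KO-G cells and 481.2 ± 5.72 CPM in WT cells (2.07-fold lower). In KO-NLS against KO-NES cells 5 rose and 17 fell, with a median of -0.23 against 0.00 over all genes, of which 13.4% rose and 10.5% fell. MMP3, another matrix protease, averaged 32.4 ± 5.61 CPM in KO-NLS cells and 108.7 ± 15.5 CPM in KO-NES cells (3.36-fold lower, edgeR adjusted p = 2.08e-09), the growth factor EREG 20.7 ± 1.54 CPM in KO-NLS cells and 39.5 ± 2.07 CPM in KO-NES cells, and PLAU rose 1.30-fold.

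**Figure D4:**
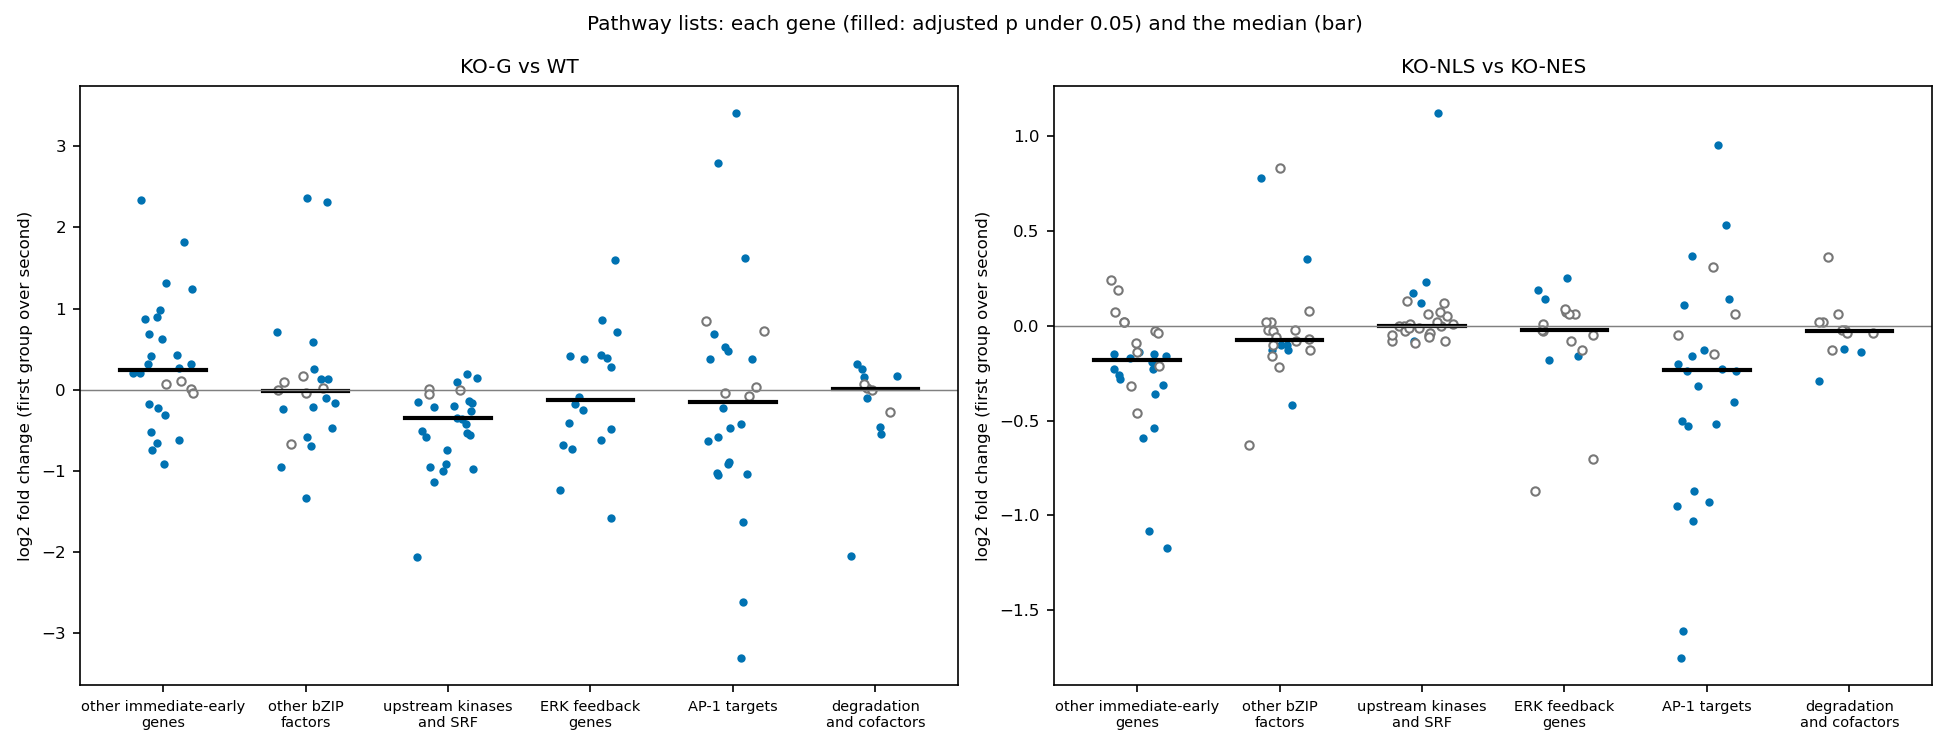
Log2 fold change (vertical axis) of each gene in 6 lists (horizontal axis) in KO-G against WT (left panel) and in KO-NLS against KO-NES (right panel), with filled points for an adjusted p under 0.05 and a bar at the median. In KO-NLS against KO-NES the medians of the other immediate-early genes (-0.18) and AP-1 targets (-0.23) lay below 0.

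Other bZIP factors, which can pair with or compete with AP-1, were divided, 7 higher and 9 lower of 22 in KO-G against WT cells and 2 higher and 5 lower in KO-NLS against KO-NES cells. Both counts are near the background, with 72.7% of all genes called in KO-G against WT and 23.9% in KO-NLS against KO-NES. The stress factor ATF4 averaged 261.9 ± 5.96 CPM in KO-G cells and 390.7 ± 12.6 CPM in WT cells (1.49-fold lower), ATF5 16.4 ± 0.615 CPM in KO-G cells and 31.9 ± 1.09 CPM in WT cells (1.94-fold lower), and BATF2, a JUN partner, 4.01 ± 0.261 CPM in KO-G cells and 0.774 ± 0.111 CPM in WT cells (5.18-fold higher). In KO-NLS against KO-NES cells ATF5 fell 1.34-fold, and BATF (1.72-fold) and BACH2 (1.28-fold) rose. Of 12 genes listed for the degradation and cofactors of AP-1, 4 rose and 4 fell in KO-G against WT cells. That is near the 72.7% called over all genes, and not all genes of the list are specific to AP-1. JAZF1, a zinc finger cofactor, averaged 3.18 ± 0.25 CPM in KO-G cells and 13.2 ± 0.561 CPM in WT cells, and COP1, a ubiquitin ligase for JUN, 26.9 ± 0.726 CPM in KO-G cells and 39.3 ± 2.05 CPM in WT cells. In KO-NLS against KO-NES cells none rose and 3 fell, where 23.9% of all genes were called: FBXW7, which marks JUN for degradation (1.22-fold), the coactivator CREBBP (1.1-fold) and KLF5 (1.08-fold).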

How the data were processed

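RNA from 18 libraries was sequenced. The authors deposited estimated counts and TPM per transcript, made with Trim Galore 0.6.10 and Salmon 1.10.0 with build hg19, per the submitters' processing notes. The per-transcript lengths are as deposited, per the file headers. Of the estimated counts per transcript, 32.5% were not whole within 1e-09. They were summed to genes by the gene identifier in the row name and rounded. Salmon divides shared reads between transcripts, which affects short models such as that of JUND. Groups came from the sample titles, because the cell line and genotype fields number upward within groups. One model with a mean per group over all 18 libraries was fitted in R 4.3.3 with edgeR 4.0.16 (filterByExpr with a minimum count of 10, TMM, quasi-likelihood test) and p-values were adjusted by the Benjamini-Hochberg method within each of 15 comparisons (6 main, 9 further). The common biological coefficient of variation was 4.87%. No libraries of a group agreed within sampling noise by a chi-square test. Steps were tested on simulated data. DESeq2 1.42.0, other settings and left-out libraries were alternatives. TPM values deposited by the authors were summed to genes for levels between genes. Positions are from GENCODE 29, since the files give none, and promoters from RefSeq. The genes named in each list are up to 3 with the smallest adjusted p in KO-G against WT and in KO-NLS against KO-NES, and some of these are not reported here. The 10 genes and all lists were chosen with earlier results of these data known.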

Additional observations from a re-analysis of the deposited data

Results flagged for a closer look

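KO-NLS and KO-NES cells differed in 7 of the 10 genes by the direct test of 1 against the other with edgeR. The log2 difference was -0.81 for EGR1, -0.60 for FOS, -0.26 for JUNB, -0.18 for IER3 and -0.08 for FOSL1, and 0.25 for FOSL2 and 0.16 for KLF6. All 3 KO-NLS libraries lay below all 3 KO-NES libraries in the first 5 genes and above them in FOSL2 and KLF6. Libraries did not overlap in 9 of the 10 genes, and in 36.2% of all genes. IMPDH2 RNA averaged 297.4 ± 12.6 CPM in KO-NLS cells and 378.7 ± 13.9 CPM in KO-NES cells (SD, n = 3 each). The part of its amount, its place or other differences between these lines was not tested. The calls of FOSL1 (adjusted p = 0.0633) and JUNB (0.0521) were lost with a replicate block, and each was lost without any 1 of 5 of the 6 libraries. Of all genes, 23.9% were called in this comparison.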

How the results depend on the processing

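The count of called genes among the 10 stayed within 1.5 times in all 6 main comparisons under every alternative run. The 2 signs that turned were those of JUN (0.55) and IER3 (-0.09) in KO-G against WT once the median of neighbouring genes was subtracted. With replicate number as a block, 9 of 10 genes were called in KO-G against WT, and 3 calls were lost: FOSB in KO-WT against KO-G (adjusted p = 0.0589), and FOSL1 (0.0633) and JUNB (0.0521) in KO-NLS against KO-NES. In the 6 main comparisons libraries of the same number deviated together little (r from -0.0856 to 0.142 over 17823 genes). The highest value was that of replicate 3 in KO-NES and KO-G cells. Whether libraries of the same number were handled together was not tested. An offset for transcript length cut the genes called over all genes to 1855 from 4601 in KO-NLS against KO-NES and to 6511 from 9781 in KO-WT against KO-G. Over the 6 main comparisons 8 calls of the 10 genes were lost with that offset, and not all of them are named here. The FOSB calls in KO+G and KO-NES against KO-G were lost with the offset (edgeR adjusted p 0.186 and 0.651) and with no filter on low counts (0.0747 and 0.112). Fits without a library leave that group with 2 and use the pooled spread.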

Other observations

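Within groups the 3 JUN genes often shared their highest library, a pattern noticed after the values were seen. In 5 of 6 groups the same library was highest for JUN, JUNB and JUND: replicate 3 in KO-NES and KO-G cells, and replicate 1 in KO-NLS, KO-WT and WT cells. The same library was lowest for all 3 genes in 3 of 6 groups, KO+G, KO-NES and KO-WT. In KO+G cells replicate 1 was highest for JUNB and JUND and replicate 2 for JUN. KO-G replicate 3 was at 127.0 CPM for JUN, 89.6 CPM for JUNB and 164.2 CPM for JUND. The 4 FOS genes shared a highest library in 0 of 6 groups, though 4 genes share one less easily than 3. The share over all genes was not computed, so these counts are a description only. Over all genes KO-NES replicate 3 also stood apart from replicates 1 and 2 (chi-square per degree of freedom 7.34 and 7.42). Between KO-NES replicates 1 and 2 that value was 4.85.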
